A study of Homo sapiens with 9 samples.

Results

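Gene expression in a clone of H2009 carrying the guide RNA sgRNA-A was compared with a control clone carrying an empty guide vector. H2009 is an established human lung adenocarcinoma line. Both clones were made with CRISPR activation, in which a Cas9 that no longer cuts DNA brings transcription activators to the site a guide RNA names, with the aim of raising the microRNAs of the 14q32 locus. A further clone with a second guide, sgRNA-B, was grown alongside. No drug or other treatment was applied, and all clones grew in the same serum-containing medium with blasticidin as the selection antibiotic, per the labels' protocols. The comparison rests on 6 of the 9 arrays, 3 for sgRNA-A and 3 for control, and covers every probe set with 1 gene symbol, which gave 23931 genes from 24733 probe sets. The labels describe the groups as cell clones, with 1 clone per guide vector, so an effect of sgRNA-A and a property of that clone cannot be told apart. P-values measure the spread between these arrays.

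The 14q32 locus between DLK1 and DIO3 is imprinted, and its maternal copy gives a large cluster of microRNAs and small nucleolar RNAs. A mature microRNA pairs through its seed, the bases near its 5′ end, with sites in messenger RNAs and usually lowers them by a modest amount, so that many targets move a little. Such a cluster can hold related microRNAs that share a seed and hence many predicted targets. Adenocarcinomas of the lung come from glandular epithelium and often keep surface glycoproteins, secreted defence proteins and junction proteins of that tissue.

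Of 54 microRNA genes of the locus with a RefSeq sequence (GRCh38.p14), the 94 mature names carried 83 distinct seeds, counted as bases 2 to 8. Only 1 seed was shared by 3 or more names in that table, and its sequences are shown because they are the largest such set that the activation was meant to raise; capitals mark the seed.
hsa-miR-323b-5p: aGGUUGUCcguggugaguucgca
hsa-miR-410-5p: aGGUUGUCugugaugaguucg
hsa-miR-494-5p: aGGUUGUCcguguugucuucucu
On these arrays MIR410 measured 3.47 log2 units in control cells and 3.50 with sgRNA-A, and MIR494 measured 4.14 and 4.30. None of the 52 microRNA genes with a probe set passed the test with sgRNA-A, and 0 had an unadjusted p below 0.05 (lowest adjusted p = 0.398, limma). Their log2 fold changes ran from -0.34 to 0.19, and 41 of them did not exceed 4.44 log2 units. That value is called the silent level here: 95% of 355 olfactory receptor genes, which are not expected to be expressed outside the nose, had a mean below it. MIR410 and MIR494 lay below it in both groups, so their values show no detected transcript. All sgRNA-A arrays lay above all control arrays for 3 of the 52 (8.98% of all genes) and below for 1 (8.78%). The 52 probe sets carry the symbols of microRNA genes, and the sources used here do not say which transcripts they detect. They gave no measured rise at these genes, and levels of the mature microRNAs were not tested.

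Levels are RMA values on a log2 scale, on which a difference of 1 is a 2-fold difference. They are RNA levels throughout, also where a gene is described by its protein, and no protein was measured. All 9 arrays had nearly the same distribution of values. The root mean square distance of an array from the others of its group was 0.168 for sgRNA-A replicate 3 and 0.126 to 0.146 for the other arrays. All 9 epithelial markers tested, among them EPCAM, CDH1 and KRT18, lay above the silent level, with a mean of 11.50 to 11.53 log2 units over the markers on control arrays and 11.40 to 11.49 with sgRNA-A. Of these 9, KRT7 fell (1.22% of all genes did). All sgRNA-A arrays lay below all control arrays for 5 of them (8.78% of all genes) and above for 1 (8.98%). The median log2 fold change was -0.08, and the part of this shift in the falls of epithelial genes described below was not tested. No marker of fibroblasts, endothelium, T cells, erythroid cells or neuroendocrine cells passed the test.

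In limma, 522 of 23931 genes (2.18%) passed an adjusted p of 0.05: 229 rose (0.957%) and 293 fell (1.22%). Of the protein-coding genes 2.79% passed. Counts of called list members below are to be read beside these shares, and no list was tested as a set. The changes were small, with a median size of 0.34 on the log2 scale among the called genes, while the median log2 fold change over all genes was 0.0036. A change of at least 2-fold was reached by 2 genes that rose, MB and IGFBP4, and by 5 that fell, CEACAM5, LCN2, TMPRSS4, AQP3 and ZNF605. The 3 sgRNA-A arrays lay wholly above or wholly below the 3 control arrays for 4249 genes, 17.8% of those tested, so that separation of the arrays alone marks many more genes than the test. Among the genes that rose, 6 had a control mean at or below the silent level. Among those that fell, 20 had an sgRNA-A mean at or below it.

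**Figure D1:**
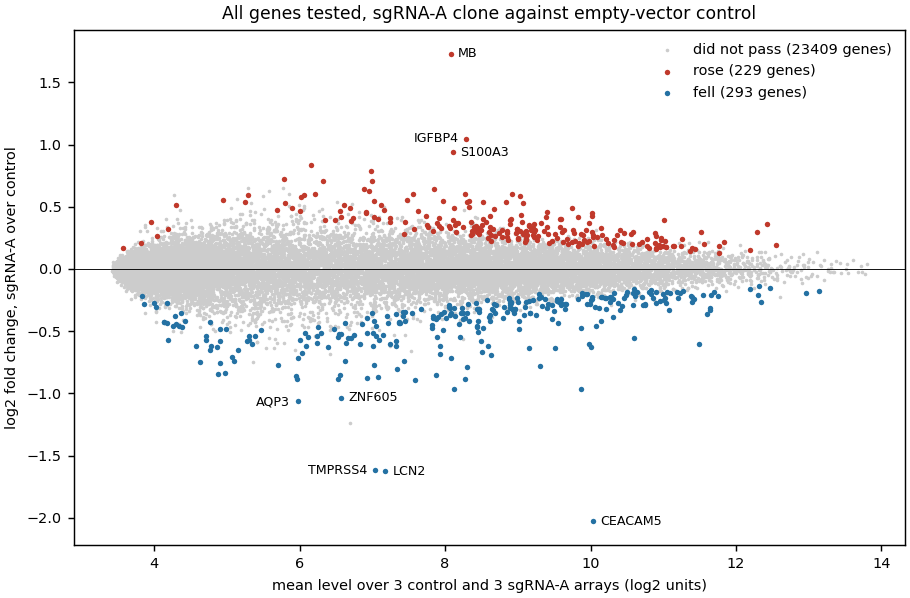
Log2 fold change of sgRNA-A over control against the mean level on the 6 arrays compared, 1 point per gene. Red points rose and blue points fell at an adjusted p below 0.05 in limma, grey points did not pass, and CEACAM5 lies lowest at -2.03 and MB highest at 1.73.

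The strongest change was a fall of CEACAM5, and it came with falls of other genes that encode proteins of the epithelial surface. CEACAM5, the carcinoembryonic antigen, is an immunoglobulin-type glycoprotein anchored in the outer membrane of glandular epithelium. It measured 11.07, 11.06 and 11.01 log2 units on the control arrays and 9.02, 8.93 and 9.11 with sgRNA-A. The groups were far apart and the arrays within each lay close together (log2 fold change -2.03, 95% interval -2.16 to -1.90; adjusted p = 7.38e-10, limma), which left 24.5% of the control level. CEACAM6, a close relative with the same kind of anchor, measured 11.73, 11.88 and 11.75 against 11.26, 11.16 and 11.14, again without overlap (-0.61, SE 0.05; adjusted p = 2.81e-05, limma). CEACAM1, the member with a cytoplasmic tail that inhibits signalling, measured 8.71, 8.78 and 8.78 against 8.29, 8.44 and 8.13 (-0.47, SE 0.08; adjusted p = 0.00705, limma). All sgRNA-A arrays were the lower ones for each of the 3. The laminin-binding BCAM fell by 0.51. These 4 were the called members among 26 immunoglobulin-type adhesion molecules, with 0 rises and 22 that did not pass, and the median of the 26 was -0.04. Each of the 4 calls held whichever array was left out.

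The stretches upstream of CEACAM5 and CEACAM6 are printed because these neighbours on chromosome 19 both fell and are alike there. Over the 250 bases before the start, 73.6% of 258 aligned columns were identical. The share was 64.4% for CEACAM5 with CEACAM1 and 67.6% for CEACAM6 with CEACAM1. Capitals mark CACGTG, an E-box, a palindrome that reads the same on both strands and is bound by proteins such as CLOCK with BMAL1, MYC and USF. The sequences are from RefSeq, GRCh38.p14, plus strand, chr19:41708540-41708625 for CEACAM5 and chr19:41755445-41755529 for CEACAM6.
CEACAM5: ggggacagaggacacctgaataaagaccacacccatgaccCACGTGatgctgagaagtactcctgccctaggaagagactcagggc
CEACAM6: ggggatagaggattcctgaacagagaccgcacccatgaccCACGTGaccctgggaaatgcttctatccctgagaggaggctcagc
The match lay 46 bases before the start of CEACAM5 and 45 before that of CEACAM6. CEACAM1, which fell as well, had none in its 250 bases. The letters CACGTG were present in 7.49% of 17059 tested genes with a promoter in the table, in 8.20% of 183 that rose and in 9.73% of 226 that fell. A match of letters does not show binding, and its part in these falls was not tested.

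In the lists of serine proteases and of protease inhibitors, 2 membrane serine proteases fell and 3 members of the inhibitor list rose. TMPRSS4, a membrane-anchored serine protease, measured 7.93, 7.83 and 7.77 log2 units in control cells and 6.28, 6.20 and 6.19 with sgRNA-A. No array of the groups came within a log2 unit of the other group (log2 fold change -1.62, SE 0.12; adjusted p = 1.43e-05, limma). What remained was 32.6% of the control level. TMPRSS11E, another protease of this type, fell by 0.41 and was the only other called member of 25 serine proteases, of which 23 did not pass (median -0.03). Of 27 genes in the list of protease inhibitors 3 rose, 0 fell and 24 did not pass, with a median of 0.04. They were CST6, an inhibitor of cysteine proteases (8.54, 8.52 and 8.62 against 9.10, 9.02 and 9.19; 0.54), SERPINA1, the inhibitor of neutrophil elastase (0.33), and SERPINH1, a collagen chaperone of the serpin fold (0.31). The call of SERPINH1 was lost without control replicate 1 or 2 or sgRNA-A replicate 1 or 2 (limma adjusted p up to 0.0801).

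The secreted LCN2, the folding enzyme AGR2 and 3 enzymes of glycosylation fell as well. LCN2, a secreted protein that captures bacterial iron carriers, measured 8.09, 8.17 and 7.71 log2 units in control cells against 6.77, 6.09 and 6.24 with sgRNA-A. The arrays were spread in both groups, and every sgRNA-A array stayed below every control array (log2 fold change -1.62, SE 0.16; adjusted p = 0.000212, limma). AGR2, a disulphide isomerase of the endoplasmic reticulum that mucin folding needs, measured 8.70, 8.88 and 8.58 against 7.69, 7.89 and 7.94 (-0.88, SE 0.09; adjusted p = 0.000296, limma), without overlap. AGR2 was the only faller among 26 genes of the unfolded protein response, in which the secreted chaperone-like factor MANF rose by 0.21, a call lost without any 1 of the 9 arrays (limma adjusted p up to 0.145). Of 30 genes of mucin-type glycosylation and fucosylation 3 fell, 0 rose and 27 did not pass, with a median of -0.08. ST6GALNAC2, which adds sialic acid to mucin-type sugars, measured 7.14, 6.99 and 6.81 against 6.12, 6.19 and 6.07 (-0.86). GALNT5, which starts such sugars, fell by 0.59 and FUT8, the enzyme of core fucosylation, by 0.20. GALNT5 was not called without control replicate 1 or sgRNA-A replicate 1 (limma adjusted p up to 0.0680), nor FUT8 without control replicates 1 or 3 or sgRNA-A replicates 1 or 2 (up to 0.104).

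The S100 genes encode small calcium-binding proteins, and members moved both ways. S100A3 rose and S100P, S100A2 and S100A14 fell, while 13 of 17 did not pass (median 0.01). S100A3 measured 7.67, 7.55 and 7.70 log2 units in control cells and 8.39, 8.64 and 8.70 with sgRNA-A, where every array was higher (0.94, SE 0.11; adjusted p = 0.00107, limma). S100P measured 5.19, 5.42 and 5.79 against 4.71, 4.69 and 4.76 (-0.74), with its control arrays widely spread. S100A2 fell by 0.68 and S100A14 by 0.22. S100P was not called without control replicate 3 or any 1 sgRNA-A replicate (limma adjusted p up to 0.0633), and S100A2 was not called without control replicate 1 (0.0537). S100A4, linked to cell motility, was 0.32 higher without passing (95% interval 0.13 to 0.51; adjusted p = 0.0901, limma). ANXA1, a membrane-binding annexin, was the only called member of 12 annexins and fell by 0.18. With no variance trend, ANXA1 (adjusted p = 0.0838) and S100A14 (0.0592, limma) were not called.

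Of 33 aquaporin and epithelial ion transport genes 2 fell and 0 rose, beside 1.22% of all genes that fell. AQP3, the water and glycerol channel, measured 6.83, 6.50 and 6.18 log2 units in control cells against 5.87, 5.13 and 5.32 with sgRNA-A, without overlap but with wide spread in both groups (-1.06, SE 0.19; adjusted p = 0.0105, limma). Its call was lost without control replicate 1 (0.0577). SCNN1A, the alpha subunit of the epithelial sodium channel, fell by 0.23 and was not called without control replicates 1 or 3, sgRNA-A replicates 1 or 2 or any 1 sgRNA-B replicate (limma adjusted p up to 0.173). The other 31 did not pass, and the median was -0.03. CACNG4, a calcium channel subunit outside that list, fell by 0.86, and SLC27A2, which takes up and activates long-chain fatty acids, by 0.88.

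**Figure D2:**
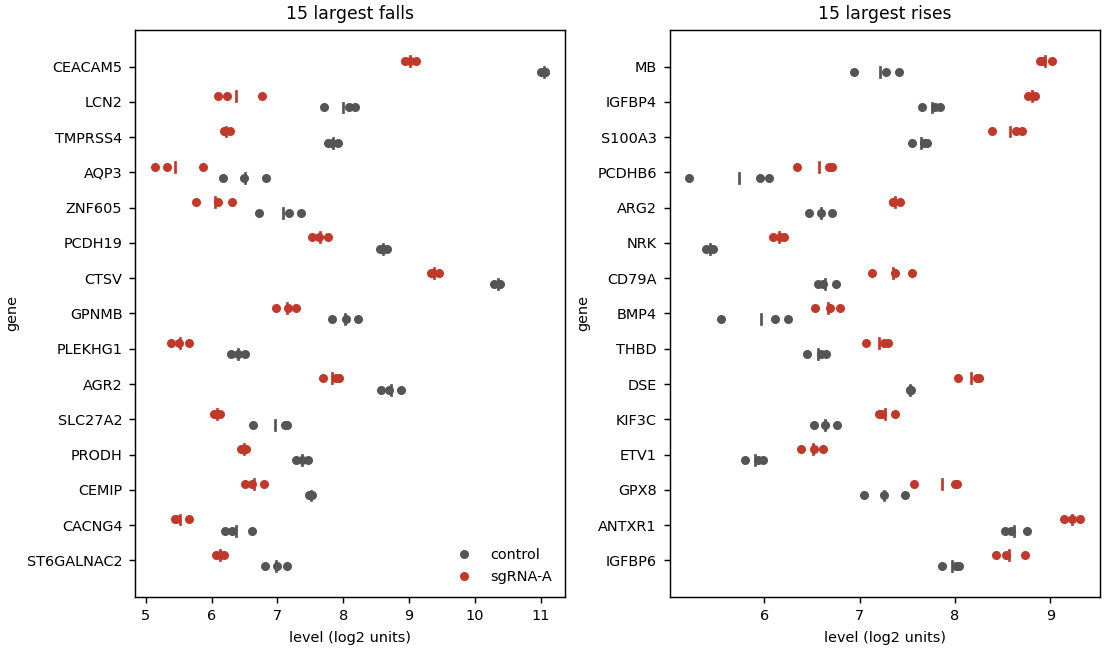
Levels in log2 units of the 15 largest falls and the 15 largest rises among called genes whose arrays do not overlap, with 1 point per array and a short bar at each group mean, control in grey and sgRNA-A in red. The gap between groups is widest for CEACAM5 on the left and MB on the right, and control replicates of LCN2, AQP3, PCDHB6 and BMP4 are spread more than those of most genes drawn.

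MB and HMOX1, which bind or break down haem, rose. These genes are also neighbours on the same chromosome, and the part of their position in these rises was not tested. Neither passed against control with sgRNA-B (0.18 for MB and -0.02 for HMOX1). MB, the oxygen-binding haem protein myoglobin, measured 6.94, 7.28 and 7.42 log2 units in control cells and 8.89, 8.91 and 9.02 with sgRNA-A. Every sgRNA-A array lay over a log2 unit above every control array (log2 fold change 1.73, SE 0.10; adjusted p = 1.86e-06, limma), a level 3.32 times that of control. Of 10 muscle markers MB alone passed: the other 9 ran from -0.19 to 0.13, with MYOD1, MYH7 and TNNI1 at or below the silent level, and their mean was 4.73 to 4.81 on control arrays and 4.72 to 4.75 with sgRNA-A. HMOX1, the enzyme that opens the haem ring, measured 9.84, 9.77 and 9.75 against 10.27, 10.28 and 10.16 (0.45, SE 0.05; adjusted p = 0.000712, limma). UROD, an enzyme of haem synthesis, rose by 0.29, while BLVRA, which reduces the biliverdin that haem breakdown gives, fell by 0.27. UROD was not called without control replicates 1 or 2 or any 1 sgRNA-A replicate (limma adjusted p up to 0.0749), nor BLVRA without control or sgRNA-A replicates 1 or 2 (up to 0.0830). With LCN2 these made 3 rises and 2 falls among 29 globin, haem and iron genes (median 0.05). Cytoglobin, CYGB, was 0.19 higher and did not pass (95% interval -0.07 to 0.45; adjusted p = 0.567, limma).

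Binding proteins of insulin-like growth factors changed in both directions, and the receptors did not pass. These proteins hold the growth factors in the extracellular fluid and control their access to the receptor. IGFBP4 measured 7.85, 7.65 and 7.79 log2 units in control cells against 8.84, 8.83 and 8.76 with sgRNA-A, a wide gap with tight groups (1.05, SE 0.07; adjusted p = 7.55e-06, limma). IGFBP6 measured 8.04, 8.01 and 7.86 against 8.43, 8.73 and 8.54 (0.60, SE 0.08; adjusted p = 0.00214, limma), also with sgRNA-A higher on every array. IGFBP3 fell by 0.60, a call lost without control replicates 1 or 3 or sgRNA-A replicates 1 or 2 (limma adjusted p up to 0.131). The other 15 of 18 genes of this axis did not pass, and the median was -0.02. The receptor IGF1R was 0.15 lower (95% interval -0.31 to -0.00; adjusted p = 0.365, limma).

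Enzymes that use arginine, proline and polyamines showed 1 rise and 2 falls among 27, with 24 that did not pass (median -0.04). ARG2, the mitochondrial arginase, measured 6.60, 6.71 and 6.47 log2 units in control cells and 7.35, 7.42 and 7.35 with sgRNA-A, where all arrays were higher (0.78, SE 0.09; adjusted p = 0.000484, limma). PRODH, which starts the breakdown of proline, measured 7.28, 7.46 and 7.37 against 6.53, 6.45 and 6.50 (-0.88, SE 0.10; adjusted p = 0.000513, limma), without overlap. SAT1, which acetylates polyamines for export, measured 10.30, 10.46 and 10.22 against 9.64, 9.71 and 9.74 (-0.63, SE 0.06; adjusted p = 0.000196, limma), with sgRNA-A lower on every array. All 3 calls held whichever array was left out.

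Amino acid carriers of the plasma membrane fell where they passed, and PSAT1 and SHMT2, enzymes of serine metabolism, rose. Of 29 carriers 4 fell and 0 rose, with a median of -0.01. SLC6A14, a broad carrier of neutral and cationic amino acids, measured 5.68, 5.31 and 5.20 log2 units against 4.57, 4.54 and 4.56 (-0.84, SE 0.12; adjusted p = 0.00398, limma), and the sgRNA-A arrays came close to the silent level. SLC7A5, the light chain of the main leucine exchanger, fell by 0.27 and SLC38A2, a glutamine and alanine carrier, by 0.21, the latter not called with no variance trend (adjusted p = 0.0564, limma). The fourth was the glycine carrier SLC6A9 (-0.37), named after its values were seen, whose call was lost without control or sgRNA-A replicates 1 or 3 or sgRNA-B replicates 1 or 2 (limma adjusted p up to 0.141). Among 26 genes of serine synthesis, one-carbon metabolism and the ATF4 response, PSAT1, a transaminase of serine synthesis, rose by 0.30 and SHMT2, the mitochondrial enzyme that turns serine into glycine, by 0.32. SHMT2 was not called without control replicate 1 (0.0525). GDF15, a secreted stress cytokine, measured 6.41, 6.38 and 6.38 against 5.82, 5.87 and 5.85, with very little spread in either group (-0.55, SE 0.09; adjusted p = 0.00877, limma). The median of that list was 0.04 and 23 did not pass. HK2, the hexokinase of the mitochondrial surface, was the only called gene of 26 in glycolysis and the pentose phosphate pathway and rose by 0.29. IDH1, the cytosolic isocitrate dehydrogenase, rose by 0.27 as the only call among 27 genes of the citric acid cycle and related steps. HK2 was not called without control or sgRNA-A replicates 1 or 2, sgRNA-A replicate 3 or sgRNA-B replicate 1 (limma adjusted p up to 0.115), nor IDH1 without control replicate 1 or sgRNA-A replicates 2 or 3 (up to 0.0866).

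Lysosomal proteases fell in part. CTSV, a cysteine cathepsin, measured 10.38, 10.30 and 10.36 log2 units in control cells and 9.34, 9.46 and 9.36 with sgRNA-A, 2 tight groups with no overlap (-0.96, SE 0.05; adjusted p = 7.51e-07, limma). GPNMB, a membrane glycoprotein of lysosomes and melanosomes, measured 8.04, 7.83 and 8.22 against 7.16, 7.29 and 6.97 (-0.89, SE 0.11; adjusted p = 0.00168, limma). The aminopeptidase-like cathepsin CTSH fell by 0.62 and CTSS, a cathepsin of antigen-presenting cells that was named after its values were seen, by 0.44. CTSA, a protective carboxypeptidase, rose by 0.13. The remaining 20 of 25 did not pass and the median was 0.00. CTSL, the closest relative of CTSV, was 0.23 higher without passing (95% interval 0.09 to 0.38). The count of 5 called members was 2 to 4 when 1 array was left out, lowest without control replicate 1 or sgRNA-A replicate 1 or 3. CTSH lost its call in these 3 fits (up to 0.0812), CTSS in 7 of 9 (up to 0.189, all but those without control replicate 3 or sgRNA-B replicate 1) and CTSA in 8 of 9 (up to 0.162, all but that without control replicate 2).

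Redox and aldehyde enzymes split. Of 36 genes of the NRF2 and glutathione list 3 rose and 3 fell, with a median of 0.03. GSTP1, the main glutathione transferase of lung epithelium, measured 10.31, 10.38 and 10.12 log2 units against 9.73, 9.75 and 9.54 (-0.60, SE 0.08; adjusted p = 0.00185, limma), with every sgRNA-A array lower. GCLC, the catalytic subunit for glutathione synthesis, fell by 0.25 and GSR, which regenerates glutathione, by 0.18. HMOX1 rose as above, with the secreted peroxidase GPX3 (0.26) and the endoplasmic reticulum peroxidase GPX8 (0.60). The calls of GCLC (lost without any 1 control replicate or sgRNA-A replicate 1 or 3), GSR (any array but control replicate 3), GPX3 (control replicate 1, sgRNA-A replicate 1 or 3) and GPX8 (control replicate 2 or 3, sgRNA-A replicate 1 or 2) did not hold in every refit, with limma adjusted p up to 0.125, 0.159, 0.0951 and 0.0868. In the list of drug, aldehyde and steroid metabolism 2 of 33 rose and 3 fell (median 0.02). DHRS9, a retinol and steroid dehydrogenase, fell by 0.72, and the aldehyde reductase AKR1B10 by 0.65 and the aldehyde dehydrogenase ALDH3A1 by 0.51. ALDH2, the mitochondrial aldehyde dehydrogenase, rose by 0.55 and DHRS3, a retinal reductase, by 0.42. Of these only DHRS9 kept its call in every refit. AKR1B10 lost it in 7 of 9 (up to 0.133; kept without sgRNA-A replicate 2 or sgRNA-B replicate 1), ALDH3A1 without any 1 control or sgRNA-A array (up to 0.0949), ALDH2 without any 1 control array or sgRNA-A replicate 1 or 2 (up to 0.137) and DHRS3 in 7 of 9 (up to 0.117; kept without sgRNA-B replicate 1 or 2).

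Clock genes changed in both arms of the feedback loop. BMAL1 with CLOCK forms the activator that binds E-boxes and drives PER1 and CIART, whose products repress it. BMAL1 measured 8.34, 8.15 and 8.24 log2 units in control cells and 7.53, 7.59 and 7.76 with sgRNA-A, without overlap (-0.62, SE 0.08; adjusted p = 0.00241, limma). PER1 measured 6.64, 6.79 and 6.62 against 7.23, 7.09 and 7.12 (0.46, SE 0.09; adjusted p = 0.0202, limma), and CIART 9.05, 9.13 and 9.05 against 9.34, 9.31 and 9.39 (0.27, SE 0.06; adjusted p = 0.0258, limma). For PER1 and CIART every sgRNA-A array was the higher. The other 17 of 20 clock genes did not pass, and the median was 0.02. CRY1 was 0.34 higher (95% interval 0.09 to 0.60; adjusted p = 0.187), NFIL3 0.29 lower (-0.50 to -0.09; 0.164) and CLOCK 0.13 lower (-0.22 to -0.05; 0.115, all limma). BMAL1 held in every refit, whereas PER1 was not called without control or sgRNA-A replicates 1 or 3 (limma adjusted p up to 0.0878), nor CIART without control replicates 1 or 3 or any 1 sgRNA-A replicate (up to 0.106). The time of harvest is not given in the labels used here, and its part in these values was not tested.

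**Figure D3:**
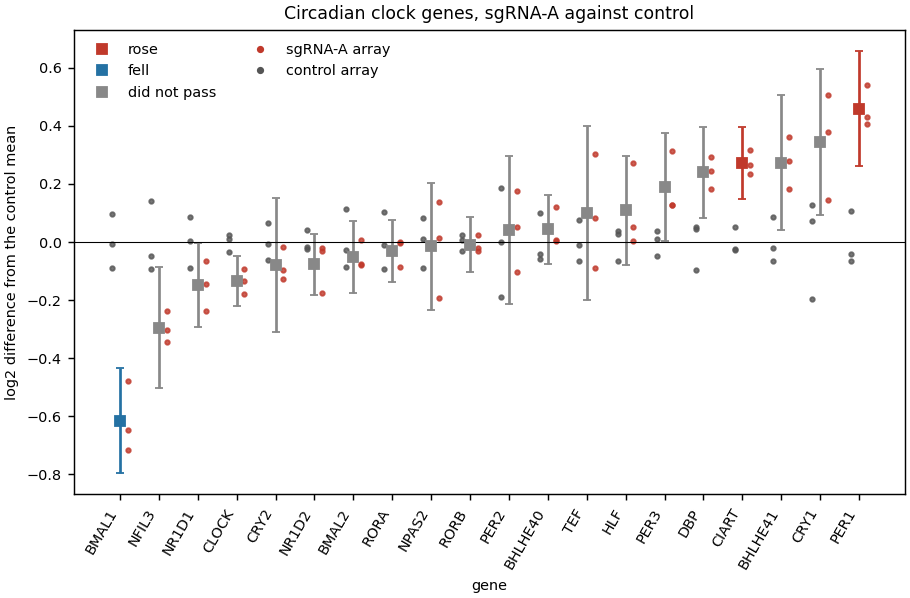
Log2 difference from the control mean for the 20 clock genes tested, with 1 small point per array, a square for the fitted fold change and a bar for its 95% interval. BMAL1 (blue) fell, PER1 and CIART (red) rose, and grey squares did not pass limma at an adjusted p of 0.05.

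The E-box stretches of PER1 and CIART are shown as the known targets of BMAL1 and CLOCK that passed the test, with CACGTG in capitals (RefSeq, GRCh38.p14; PER1 on the minus strand at chr17:8152532-8152617, CIART on the plus strand at chr1:150282385-150282542).
PER1: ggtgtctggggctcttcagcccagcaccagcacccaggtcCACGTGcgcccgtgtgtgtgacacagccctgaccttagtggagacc
CIART: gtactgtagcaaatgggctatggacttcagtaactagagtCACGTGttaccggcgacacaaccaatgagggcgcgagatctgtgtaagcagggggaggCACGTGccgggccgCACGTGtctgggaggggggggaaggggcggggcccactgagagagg
PER1 had 1 match, 173 bases before its start, and CIART had 3, between 129 and 57 bases before its start, within the 250 bases searched. The share of promoters with the motif was 7.49% among 17059 tested genes and 8.20% among 183 that rose. Over all 27305 promoters in the table it was 6.49%.

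In the lists of keratins and desmosomes, integrins, and actin and myosin genes, 2 members each fell and 0 rose. Over all genes 1.22% fell. DSC2, a desmosomal cadherin, measured 10.86, 10.84 and 10.94 log2 units against 10.38, 10.36 and 10.23 (-0.56, SE 0.05; adjusted p = 0.000196, limma), with all sgRNA-A arrays lower. KRT7, a keratin of simple epithelium, fell by 0.18, and the other 23 of 25 keratin and desmosome genes did not pass (median -0.08). KRT7 was not called without control replicates 1 or 2 or sgRNA-A replicate 1 (limma adjusted p up to 0.0769). PCDH19, a non-clustered protocadherin, measured 8.67, 8.60 and 8.56 against 7.53, 7.64 and 7.76 (-0.97, SE 0.08; adjusted p = 6.24e-05, limma) and was the only call among 24 cadherins and protocadherins. In the clustered beta family PCDHB6 alone of 16 passed and rose by 0.84, a call lost without control replicate 1 or sgRNA-A replicates 1 or 2 (up to 0.102). The integrin subunits ITGB6 (-0.33) and ITGB8 (-0.54) fell, and 15 of 17 integrins did not pass. ITGB8 was not called without any 1 control replicate, sgRNA-A replicates 1 or 3 or sgRNA-B replicate 3 (up to 0.116). The myosin motors MYO5B (-0.42) and MYO6 (-0.28), which carry vesicles, fell among 32 actin and myosin genes, MYO6 not without control replicate 1 (0.0556). No claudin or tight junction gene of 24 passed, with a median of -0.06; CLDN1 was 0.34 lower (95% interval -0.56 to -0.12; adjusted p = 0.115, limma).

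Genes of the matrix passed in both directions. The basement membrane chain LAMB1 rose by 0.29 and the collagen chain COL6A2 by 0.35, with 0 falls among 28 collagens and laminins (median 0.05); COL6A2 was not called without control replicate 1 or sgRNA-A replicate 3 (limma adjusted p up to 0.0943). LOXL2, which cross-links collagen, measured 8.41, 8.17 and 8.20 log2 units against 8.72, 8.92 and 8.74, with sgRNA-A higher on every array (0.54, SE 0.07; adjusted p = 0.00272, limma). CEMIP, which breaks down hyaluronan, measured 7.48, 7.51 and 7.53 against 6.51, 6.79 and 6.61, with no overlap (-0.87, SE 0.09; adjusted p = 0.000316, limma). HAS3, which makes hyaluronan, fell by 0.43 and the collagenase MMP13 by 0.38. HAS3 was not called without control replicate 2 or sgRNA-A replicates 1 or 3 (up to 0.0704), nor MMP13 without control replicate 1 or any 1 sgRNA-A replicate (up to 0.0900). Of 39 genes in that list 35 did not pass (median 0.05). Outside the lists, DSE, which makes dermatan sulphate, rose by 0.64, ANTXR1, a collagen-binding membrane receptor, by 0.60 and THBD, the thrombin receptor thrombomodulin, by 0.64.

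Signalling genes changed as scattered members, beside 2.18% of all genes called. Among 33 BMP and TGF-beta genes the ligand BMP4 rose by 0.70 and ID1, a target that blocks helix-loop-helix factors, fell by 0.19. BMP4 was not called without control replicate 3, any 1 sgRNA-A replicate or sgRNA-B replicates 2 or 3 (limma adjusted p up to 0.112), and ID1 was not called without any 1 of the 9 arrays (up to 0.170). Both called ephrins fell, EFNB2 by 0.28 and EFNA1 by 0.59, with 16 of 18 ephrin and Eph genes not passing; EFNA1 was lost without any 1 control array or sgRNA-A replicate 2 or 3 (up to 0.109). The growth factor FGF5 rose by 0.41 and FGFBP1, which frees FGFs from the matrix, fell by 0.62, with 17 of 19 FGF genes not passing. FGF5 was lost without control or sgRNA-A replicate 1 (up to 0.0902), and FGFBP1 without sgRNA-A replicate 1 (0.0509). Semaphorins SEMA3E (0.35) and SEMA4B (0.22) rose and the coreceptor NRP2 fell by 0.20 among 28. SEMA3E was lost without any 1 control or sgRNA-A array (up to 0.0940), SEMA4B without those but control replicate 3, or without sgRNA-B replicate 3 (up to 0.119), and NRP2 without any array but control replicate 2 (up to 0.138). ERRFI1, a feedback inhibitor of the EGF receptor, was the only call among 15 ERBB and MET genes (-0.13), lost without any 1 control array, sgRNA-A replicate 2 or 3 or sgRNA-B replicate 1 (up to 0.109).

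The ETS factors ETV1 and ETV5 rose, and of 4 called dual-specificity phosphatases 3 fell. Among 29 immediate early genes ETV1 measured 5.80, 5.93 and 5.99 log2 units against 6.61, 6.39 and 6.52, with sgRNA-A higher on every array (0.60, SE 0.10; adjusted p = 0.00790, limma). DUSP5, a nuclear phosphatase of ERK, measured 9.37, 9.31 and 9.35 against 8.98, 9.02 and 8.96 (-0.35, SE 0.05; adjusted p = 0.00272, limma), with tight and separate groups. DUSP10, which acts on JNK and p38, fell by 0.46 and DUSP7 by 0.31, while DUSP23 rose by 0.25: 1 rise and 3 falls of 25 genes whose symbols start with DUSP (median -0.07). DUSP7 was lost without control replicate 1 (0.0551) and DUSP23 without any array but sgRNA-B replicate 2 (up to 0.139). In the immediate early list ETV5 (0.49) and the AP-1 gene FOSL1 (0.18) also rose and IER5 fell by 0.32, against a median of -0.04. ETV5 was lost without control replicate 1 or 3 or any 1 sgRNA-A array (up to 0.110), FOSL1 in 7 of 9 refits (up to 0.190; kept without control replicate 3 or sgRNA-A replicate 2) and IER5 without control or sgRNA-A replicate 1 or 3 (up to 0.0986). Of 27 YAP and TEAD targets AXL, a receptor tyrosine kinase, rose (10.82, 10.70 and 10.93 against 11.23, 11.25 and 11.15; 0.39) with NT5E, which makes adenosine (0.16), and the clotting initiator F3 fell by 0.15. NT5E was lost without any 1 control or sgRNA-A array (up to 0.0960), and F3 without those but control replicate 2 (up to 0.0983).

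Both called lineage factors fell, beside 1.22% of all genes that fell. GRHL1, a grainyhead factor that controls desmosomal genes, measured 7.53, 7.25 and 7.43 log2 units against 6.67, 6.85 and 6.38 (-0.77, SE 0.12; adjusted p = 0.00513, limma), with all sgRNA-A arrays lower. ELF3, an ETS factor of epithelium, measured 9.05, 9.19 and 9.14 against 8.71, 8.79 and 8.83, also without overlap (-0.35, SE 0.06; adjusted p = 0.00575, limma). The other 24 of 26 lung and foregut factors did not pass (median 0.03). ZNF605, a KRAB zinc finger gene, measured 7.36, 6.73 and 7.18 against 6.31, 5.76 and 6.10 (-1.03, SE 0.17; adjusted p = 0.00728, limma), with the lowest control array above the highest sgRNA-A array.

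A few receptors, complement regulators and antigen-processing genes passed. Among 40 cytokine and growth factor receptors the interleukin receptors IL1R1 (-0.58) and IL6R (-0.40) and the oncostatin M receptor OSMR (-0.18) fell and AXL rose. IL1R1 was lost without any 1 control array or sgRNA-A replicate 2 or 3 (limma adjusted p up to 0.119), IL6R without any 1 control array or sgRNA-A replicate 1 or 3 (up to 0.122) and OSMR without control replicate 1 or sgRNA-A replicate 1 or 2 (up to 0.0689). In antigen presentation and complement, the peptide trimmer ERAP2 (0.40) and the peptide-loading protein TAPBP (0.31) rose, the complement regulators CFI (-0.35) and CD55 (-0.20) fell, and 24 of 28 did not pass (median -0.00). TAPBP was lost without control replicate 1 or sgRNA-A replicate 2 (up to 0.0545), CFI without control replicate 1 or 2 or any 1 sgRNA-A array (up to 0.103) and CD55 without control replicate 1 or sgRNA-A replicate 2 or 3 (up to 0.0945). TNFAIP2 alone of 34 NF-kappaB targets and cytokines passed (0.38). CD79A, a chain of the B-cell receptor complex, measured 6.75, 6.62 and 6.56 log2 units against 7.37, 7.13 and 7.55 (0.71, SE 0.11; adjusted p = 0.00471, limma), with sgRNA-A higher on every array. Of 7 B-cell markers the other 6 did not pass (-0.04 to 0.25, with a mean of 4.41 to 4.44 on control arrays and 4.47 to 4.52 with sgRNA-A), and MS4A1, PAX5, BLK and VPREB3 lay at or below the silent level. Of 8 myeloid markers CD68, a lysosomal glycoprotein named after its values were seen, rose by 0.30. The other 7 did not pass, and 6 of the 8, among them CD14 and LYZ, lay at or below the silent level.

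Among 31 kinesins, motors of microtubules, KIF20A and KIF2C, which act in cell division, rose by 0.37 and 0.25, the neuronal KIF3C rose by 0.63 and the vesicle motor KIF13A fell by 0.26 (median -0.02). KIF2C was lost without control replicate 1 or 2 or sgRNA-A replicate 2 or 3 (limma adjusted p up to 0.137), KIF3C without control or sgRNA-A replicate 1 (up to 0.0691) and KIF13A without control replicate 1 or 2 or any 1 sgRNA-A array (up to 0.0800). RBL1, a pocket protein related to RB, was the only call among 27 G1 genes (-0.30) and was lost in 7 of 9 refits (up to 0.170; kept without control replicate 3 or sgRNA-A replicate 2). HSPB1, a small heat shock protein, rose by 0.19 as the only call among 18 cytosolic heat shock genes, which had the highest median of the 48 lists (0.10), with 7 members whose sgRNA-A arrays all lay above the control arrays (8.98% of all genes did) and 0 wholly below (8.78%). The opposite was seen for keratins and desmosomes, with 0 wholly above and 9 wholly below of 25, glycosylation genes, with 2 and 10 of 30, and tight junction genes, with 2 and 8 of 24. HSPB1 was not called with no variance trend (adjusted p = 0.0821, limma).

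In 8 of the 48 lists no member passed: Wnt signalling (37 tested), fatty acid metabolism (35), proteasome and chaperonin subunits (31), the BCL2 family and caspases (26), p53 targets (25), tight junctions (24), microRNA processing and silencing (22) and tubulins (18). DICER1, which cuts microRNA precursors, was 0.20 lower (95% interval -0.33 to -0.08; adjusted p = 0.0958, limma), and AGO2, which carries mature microRNAs, 0.07 lower (-0.19 to 0.06; 0.709). MDM2, a target and inhibitor of p53, was 0.24 lower (-0.37 to -0.11; 0.0704), and CDKN1A, the p53 target that stops the cycle, 0.23 lower (-0.51 to 0.05; 0.503). The Wnt receptor FZD2 was 0.53 higher (0.15 to 0.92; 0.172, all limma). Together the lists hold 1250 of the genes tested and 107 of the 522 called genes, so most calls lie outside them.

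**Figure D4:**
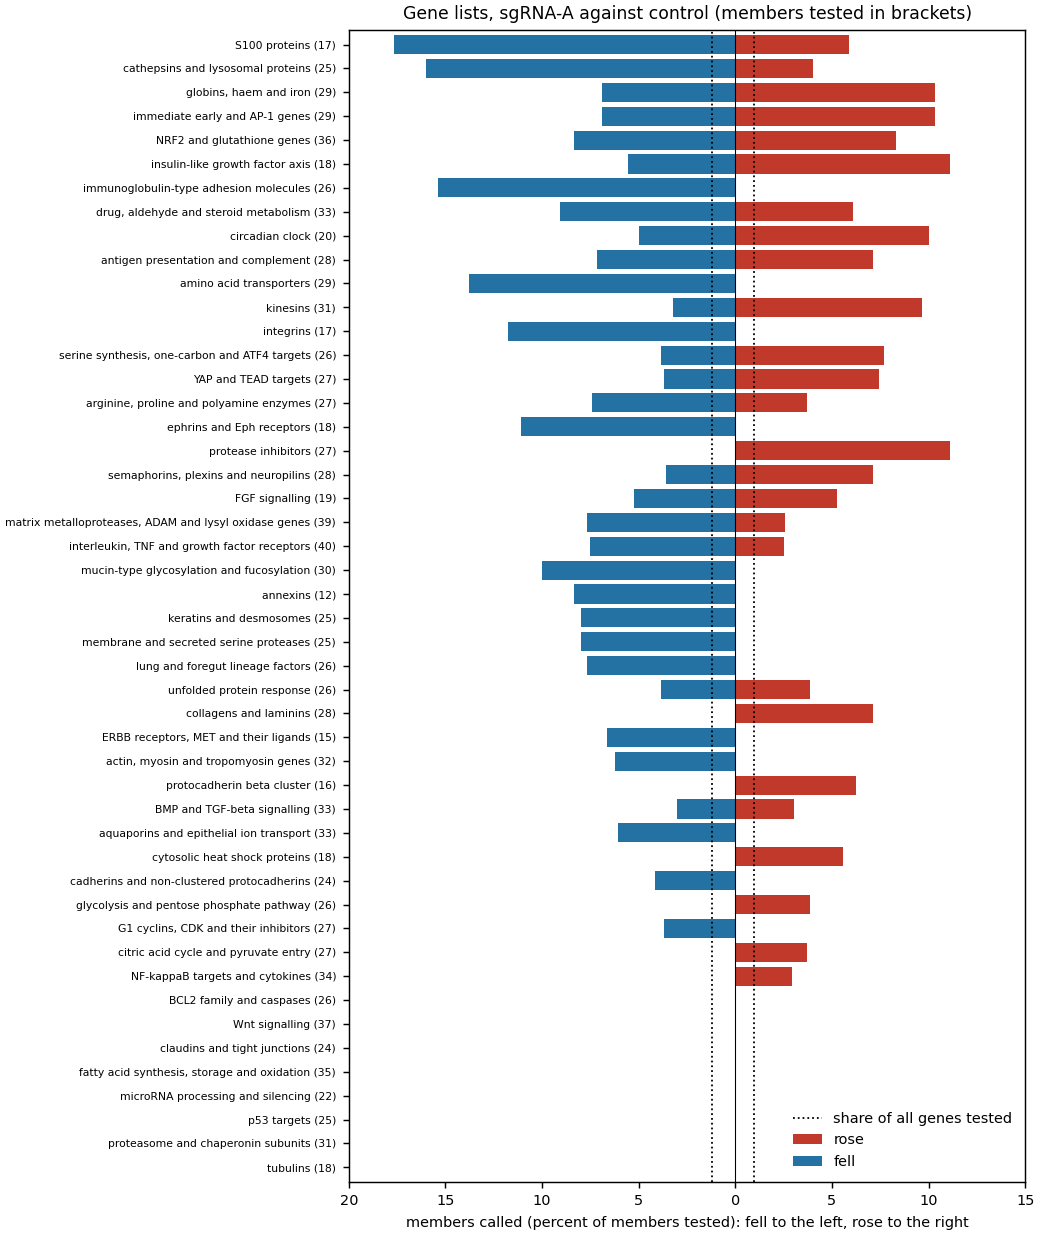
Share of the members tested that rose (red, right) or fell (blue, left) in each of 48 gene lists, sgRNA-A against control, with the number tested in brackets. Dotted lines mark the shares over all genes, 0.957% rising and 1.22% falling; the lists were chosen with earlier results of these data known, so bars beyond the lines are a description.

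Grouping genes by the letters that start their symbols gave 310 groups of at least 10 genes, and 19 had 3 or more called genes. Of these 19, the 8 with the highest share called in 1 direction were chosen for naming, here or above. High shares among them follow from that choice. Over all genes 0.957% rose and 1.22% fell. The CEACAM group had 0 rises and 3 falls of 13 (23.1% fell). Symbols that start with ZDHHC had 1 rise and 2 falls of 26, and those with FBXO 2 rises and 1 fall of 37. DHRS genes, short-chain dehydrogenases, had 1 rise (DHRS3) and 3 falls of 13: DHRS9, DHRS13 (-0.81) and DHRS7 (-0.30). Of 61 RPL symbols 3 rose and 1 fell: RPL10 (0.58), RPL13 (0.35) and RPL39L (0.36) against RPL22L1 (-0.37). Ribosomal protein genes have near-identical copies, so these values are uncertain, and all 4 were lost in some refit (limma adjusted p up to 0.142, 0.181, 0.0699 and 0.0577). The arrays were control replicates 1 and 2, every sgRNA-A replicate and sgRNA-B replicate 3 for RPL10, any but sgRNA-B replicate 2 for RPL13, control replicate 1 and sgRNA-A replicates 1 and 3 for RPL39L, and sgRNA-A replicates 2 and 3 for RPL22L1.

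Called genes were nearly all protein-coding: 216 rose and 279 fell of 17753 (2.79%), against 9 and 9 of 3564 long non-coding RNAs (0.505%), 0 of 313 small nucleolar RNAs and 2 of 1082 microRNA genes. Above the silent level lay 12102 of the protein-coding genes and 807 of the long non-coding RNAs. The same held for 203 of the small nucleolar RNAs and 266 of the microRNA genes. These shares therefore include undetected genes, most of all among long non-coding RNAs and microRNA genes. The 2 called microRNA genes, named after their values were seen, both fell: MIR614 by 0.42 and MIR4749 by 0.30. Both group means of MIR4749 (4.17 and 3.87) lay below the silent level, so its value is no measured change of a detected transcript, and it was not called without control replicates 2 or 3 or any 1 sgRNA-A array (limma adjusted p up to 0.128). The share called per chromosome ran from 1.34% on chromosome 21 to 3.14% on chromosome 5, apart from 0 of 42 genes on Y. Medians over 25 neighbouring genes, taken among the 11956 placed genes brighter than the median gene, lay within 0.1 of 0 for 98.8% of 11403 windows. The highest, on chromosome 1 from PEX14 to CELA2A, had a median of 0.17 with sgRNA-A and 0.04 with sgRNA-B, with 18 of 25 genes above 0. There DHRS3, MAD2L2 (0.21) and FBXO44 (0.47) rose. MAD2L2 was lost without control replicates 1 or 2 or any 1 sgRNA-A array (up to 0.0769) and FBXO44 without any 1 of the 9 arrays (up to 0.160). The lowest, on chromosome 11 from DEUP1 to FAM76B, had a median of -0.14 and no called gene.

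The sgRNA-B clone was compared with the same 3 control arrays, so both comparisons share them, and the values are given side by side. With sgRNA-B 735 genes (3.07%) passed, 374 higher (1.56%) and 361 lower (1.51%). CEACAM5 changed by -2.03 with sgRNA-A and -1.72 with sgRNA-B, TMPRSS4 by -1.62 and -1.03, CTSV by -0.96 and -0.79, BMAL1 by -0.62 and -0.49, ARG2 by 0.78 and 1.13 and LOXL2 by 0.54 and 0.58, and each passed with both. Others passed with sgRNA-A and not with sgRNA-B: CEACAM1 changed by -0.47 and -0.08, GPNMB by -0.89 and -0.24, GDF15 by -0.55 and -0.15, ELF3 by -0.35 and -0.10, MMP13 by -0.38 and -0.04, OSMR by -0.18 and -0.05 and AQP3 by -1.06 and -0.61 (adjusted p with sgRNA-B from 0.111 to 0.873, limma). The difference between the clones does not use the control arrays' means, and 25 genes (0.104%) passed in that test. CEACAM5 was 0.30 lower with sgRNA-A than with sgRNA-B without passing (95% interval -0.43 to -0.17; adjusted p = 0.0944, limma). TMPRSS4 was 0.59 lower (-0.84 to -0.34; 0.0944), CEACAM1 0.39 lower (-0.56 to -0.23; 0.0944) and GPNMB 0.65 lower (-0.89 to -0.41; 0.0554), also short of the threshold, as were GDF15, ELF3, MMP13, OSMR and AQP3 (adjusted p from 0.123 to 0.429, limma).

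Of the 522 genes called with sgRNA-A, 8 also differed from sgRNA-B. MB measured 7.36, 7.35 and 7.46 log2 units with sgRNA-B, close to control and below every sgRNA-A array (sgRNA-A minus sgRNA-B 1.55, SE 0.10; adjusted p = 2.25e-05, limma). IGFBP4 measured 7.93, 8.10 and 7.94 with sgRNA-B (difference 0.82, SE 0.07; adjusted p = 0.000209, limma) and HMOX1 9.71, 9.74 and 9.84 (0.47, SE 0.05; adjusted p = 0.00160, limma). In these 3 genes the sgRNA-A arrays stood above both other groups. PCDH19 measured 8.55, 8.43 and 8.28 with sgRNA-B (-0.78, SE 0.08; adjusted p = 0.00122, limma) and ZNF605 7.05, 6.92 and 7.34 (-1.05, SE 0.17; adjusted p = 0.0386, limma), so that sgRNA-A was the low group. The difference of ZNF605 was not called without any 1 sgRNA-A or sgRNA-B array (up to 0.184), with no variance trend (0.151) or with robust variances (0.0563). DHRS3 was higher with sgRNA-B (7.42, 7.21 and 7.34) than with sgRNA-A (6.71, 6.74 and 6.88), and both were above control (sgRNA-A minus sgRNA-B -0.55; adjusted p = 0.0413, limma). That difference was not called without control replicate 1 or any 1 sgRNA-A or sgRNA-B array (up to 0.246).

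The last 2 of the 8 lie outside the naming rule and were chosen after their values were seen. NDRG1, a stress- and hypoxia-responsive gene, measured 9.79, 9.83 and 9.92 log2 units in control cells, 10.08, 10.09 and 10.02 with sgRNA-A and 9.73, 9.70 and 9.67 with sgRNA-B. It was the highest with sgRNA-A and lowest with sgRNA-B (sgRNA-A over control 0.22; sgRNA-A minus sgRNA-B 0.36, adjusted p = 0.00967, limma). SPX, which encodes the peptide hormone spexin, measured 8.26, 8.26 and 8.12 in control cells, 7.83, 7.65 and 7.70 with sgRNA-A and 8.26, 8.44 and 8.22 with sgRNA-B, low on the sgRNA-A arrays alone (sgRNA-A over control -0.49; sgRNA-A minus sgRNA-B -0.58, adjusted p = 0.0112, limma). The difference of NDRG1 between the clones was lost without any 1 sgRNA-B array or sgRNA-A replicate 1 or 2 (up to 0.0623), and that of SPX without sgRNA-A replicate 2 or 3 or sgRNA-B replicate 1 or 2 (up to 0.0726). NDRG1 against control was lost without control replicate 1 or 2 or any 1 sgRNA-A array (up to 0.145).

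**Figure D5:**
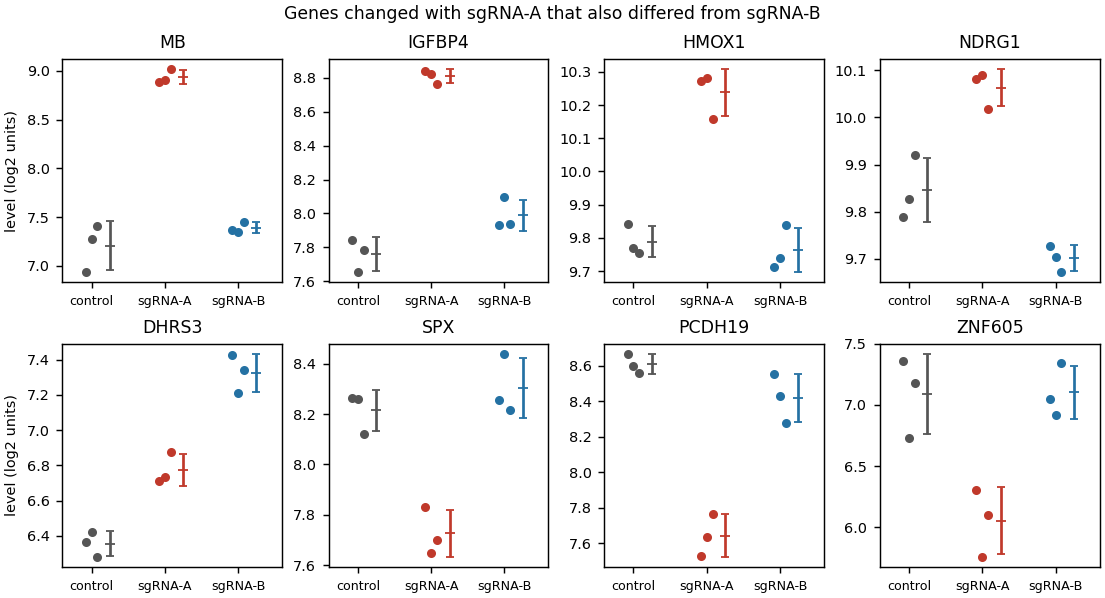
Levels in log2 units of the 8 genes called with sgRNA-A against control that also differed between the clones, 1 point per array, with the mean and SD of each group of 3 beside the points. MB, IGFBP4, HMOX1 and NDRG1 were highest with sgRNA-A, PCDH19, SPX and ZNF605 lowest with it, and DHRS3 lay between control and sgRNA-B.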

How the data were processed

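The authors deposited 1 value per probe set and array on a log2 scale, made with RMA per the submitters' processing notes; its settings and version and the probe definition are not given in the sources used here. The column medians were 4.91 and values ran from 3.38 to 13.82, the levels of single arrays and not ratios. RMA makes the arrays' distributions alike, so a shift of all genes would not be seen. No genome build is named; coordinates and sequences printed are RefSeq's.

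Of 24733 probe sets 23934 had 1 symbol, 0 several and 799 none; 23893 matched a RefSeq record. For 6 probe sets that share 3 symbols the brighter was kept. The 799 probe sets without a symbol were fitted separately.

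All 9 arrays entered a limma 3.58.1 fit (R 4.3.3; lmFit, eBayes with trend; 6 residual and 7.27 prior degrees of freedom) with 1 mean per group and Benjamini-Hochberg adjustment over 23931 genes. A gene rose, fell or passed at an adjusted p below 0.05. Intervals are 95% intervals of the fit, and the number of arrays limits the precision. Tested on simulated data (200 of 23931 genes changed, 5 simulations), the fit recovered 75.6% of genes moved by log2 0.5 and 96.4% of those moved by 1. Of the calls in the simulated data 4.67% were false. With such noise the adjusted p of 0.05 sets a share near this, so it gives no false share for the real calls. The simulated noise was normal and independent between arrays and genes, and changes as small as the median called size of 0.34 were not simulated. Replicate numbers were not taken to pair the arrays, and a batch shared by arrays of 1 number was not tested beyond the block fit given below.

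Genes named are the 15 largest rises and falls without overlap, up to 3 called members of each list per direction, and up to 5 called members of the windows and symbol groups; others are marked in the text. The members and the 48 gene lists were chosen with earlier results of these data known, and 78 listed symbols had no match. Alternatives were other samples in the fit, a replicate block, other variance models, a filter on dim genes, other scalings, array weights, a stricter threshold and leaving out each array.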

Additional observations from a re-analysis of the deposited data

Results flagged for a closer look

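The 8 genes below passed against control and also differed between the clones in limma's test of sgRNA-A minus sgRNA-B. Higher with sgRNA-A were MB (1.549), IGFBP4 (0.820), HMOX1 (0.475) and NDRG1 (0.361). Lower with sgRNA-A were ZNF605 (-1.048), PCDH19 (-0.775), SPX (-0.578) and DHRS3 (-0.551), all as log2 differences. MB, IGFBP4, HMOX1 and PCDH19 kept the difference in every refit that left out 1 array.

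Among 799 probe sets without a gene symbol, which enter none of the comparisons, 13 were called higher and 20 lower with sgRNA-A against control in a separate limma fit, and 120 had an unadjusted p below 0.05.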

How the results depend on the processing

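The count of 522 genes called with sgRNA-A was 321 with only the sgRNA-A and control arrays in the fit, 172 at an adjusted p below 0.01 and 788 with the dimmest genes left out, a filter that also reduces the number of genes tested. Leaving out 1 array gave 223 (without control replicate 1) to 435 genes; it was 349 and 384 without control replicates 3 and 2, and 269, 321 and 254 without sgRNA-A replicates 1, 2 and 3. Of the 522, 209 were shared with the fit without control replicate 1 and 242 with that without sgRNA-A replicate 3. With the replicate number as a block 465 genes were called, 427 of them among the 522. For replicates 1, 2 and 3, deviations of same-numbered arrays correlated at 0.087, -0.058 and 0.094 between control and sgRNA-A. The values were 0.093, 0.135 and 0.049 between control and sgRNA-B, and 0.005, -0.145 and -0.006 between the guides. Different-numbered control and sgRNA-A arrays gave -0.132 to 0.068. The numbers were not taken to pair the arrays, and a batch shared by arrays of 1 number was not tested further. Repeated quantile normalization gave 522, median centring 520, array weights 491, robust variances 549 and no variance trend 364. The 25 genes that differed between the clones were 39 with the dimmest genes left out, 34 with the replicate block and 6 to 30 when 1 array was left out, 6 without sgRNA-B replicate 1 and 8 without sgRNA-A replicate 2. No fold change of a named gene turned its direction under any alternative run, and 71 of 149 genes checked kept their call whichever array was left out. The cause of these shifts was not tested beyond the smaller number of arrays or genes that each fit holds.

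With 3 arrays a group, genes near the threshold move with any array, and dim genes near the silent level give compressed fold changes.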

Other observations

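Several called genes outside the lists, chosen after their values were seen, encode secreted proteins or enzymes that make short-range signals. PTGES, the synthase that gives prostaglandin E, measured 9.03, 8.72 and 8.79 log2 units in control cells and 8.06, 8.29 and 8.18 with sgRNA-A, without overlap (-0.67, SE 0.09; adjusted p = 0.00261, limma). PTGS2, the inducible cyclooxygenase upstream of it, fell by 0.63, and HPGD, which inactivates prostaglandins, fell by 0.54. PTGS2 was not called without control replicate 1 or sgRNA-A replicate 3 (limma adjusted p up to 0.0699), nor HPGD without any 1 control replicate or sgRNA-A replicate 3 (up to 0.0841).

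Both transcobalamins, carriers of vitamin B12, were lower. TCN1, the secreted haptocorrin of glandular epithelium, measured 5.33, 5.27 and 5.26 against 4.65, 4.62 and 4.32, and its sgRNA-A arrays came near the silent level (-0.76, SE 0.11; adjusted p = 0.00272, limma). TCN2, the carrier that delivers the vitamin to cells, fell by 0.39. Midkine (MDK), a heparin-binding growth factor, fell by 0.64, the carboxypeptidase CPE by 0.85 and the vasoconstrictor gene EDN1 by 0.67, each called whichever array was left out. The prolactin receptor PRLR rose by 0.59, not without control replicate 2 or any 1 sgRNA-A array (up to 0.0813).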
